A study of Homo sapiens with 3 samples.

Results

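A 7 Mb stretch of the long arm of chromosome 3, labelled 3q21, was examined for binding of XPB and XPD, the helicase subunits of TFIIH. The stretch is called the block here. Its members were all peaks with a summit on chromosome 3 between 123000 and 130000 kb of the human hg19 build, 465 of the 21555 XPB peaks and 349 of the 14570 XPD peaks, which is 814 of 36125 peaks in all. The stretch was chosen by the number of XPB and XPD peaks per 1 Mb window, so its peak number and everything measured on the same peaks are given as a description, without a test.

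The study profiled the genome of HT1080 cells, an established human fibrosarcoma line, by ChIP-seq, in which DNA bound by a protein is enriched with an antibody and sequenced. The groups used were 1 library made with a rabbit polyclonal antibody against XPB and 1 library made with a rabbit polyclonal antibody against XPD. Both came from the same pool of crosslinked chromatin of cultured cells, as did an input library without enrichment, which is not analysed here. With 1 library per antibody there is no replicate check, and the intervals below are 95% intervals that cover counting error only. Read depth is not recorded in the lists, and heights and scores of XPB are therefore not set against those of XPD as absolute levels.

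TFIIH is a complex that joins RNA polymerase II at promoters and is also recruited to damaged DNA in nucleotide excision repair. XPB is the translocase that opens promoter DNA, and XPD is the helicase that unwinds DNA around a lesion. A peak of either protein in these lists is an interval with more sequenced fragments than the caller expected, its summit is the position with the most fragments, and its height is the number of fragments there. The score grows as the caller's p-value falls (the log10 of p multiplied by -10), and 150 is the lowest score listed.

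Band 3q21 is known for a group of widely expressed genes and for one developmental regulator. In the RefSeq gene table of the GRCh38 assembly, 12 genes of this part of chromosome 3 follow each other in the order MYLK, KALRN, ITGB5, MCM2, SEC61A1, RUVBL1, EEFSEC, GATA2, RPN1, RAB7A, CNBP and MBD4. MCM2 encodes a subunit of the replicative helicase, RUVBL1 an ATPase of chromatin remodelling complexes, SEC61A1 and RPN1 proteins of protein entry into the endoplasmic reticulum and its glycosylation, and MBD4 a DNA glycosylase of base excision repair. GATA2 encodes a transcription factor of blood progenitors, and rearrangements that join 3q21 with 3q26 occur in myeloid leukaemia. The peaks are on hg19 and the gene table is on another assembly, so no peak was assigned to a gene.

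The block held 66.4 XPB peaks per Mb (60.5 to 72.7) and 49.9 XPD peaks per Mb (44.8 to 55.4). The rest of chromosome 3, which here leaves out the block and the dense stretch from 183000 to 198000 kb, held 8.05 XPB peaks per Mb (7.63 to 8.48) and 5.19 XPD peaks per Mb (4.86 to 5.54). The block was thus 8.26 times as dense in XPB peaks (7.42 to 9.18) and 9.61 times as dense in XPD peaks (8.47 to 10.9). It made up 19.2% of all XPB peaks and 20.6% of all XPD peaks on chromosome 3. The ratio of XPB to XPD peaks was 1.33 in the block (1.16 to 1.54) and 1.55 in the rest of the chromosome (1.43 to 1.69), intervals that overlap.

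Peaks were unevenly spread within the block, with most of them in its second part. The windows of 1 Mb from 126000 to 129000 kb held 84, 95 and 94 XPB peaks and 71, 65 and 73 XPD peaks. The windows before them, from 123000 to 126000 kb, held 48, 54 and 39 XPB peaks and 48, 25 and 28 XPD peaks. The last window, from 129000 to 130000 kb, held 51 XPB and 39 XPD peaks, of which 37 and 34 lay in its first 400 kb. Outside the block, the 176 windows of the rest of chromosome 3 held a median of 4 XPB peaks (range 0 to 61) and 3 XPD peaks (0 to 40).

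At a finer scale the lists had similar profiles. In bins of 100 kb the block had a median of 6 XPB summits (range 0 to 21) and 4 XPD summits (0 to 16). Only 1 of the 70 bins was empty of XPB summits, and 7 were empty of XPD summits. Across these 70 bins Spearman's rho between XPB and XPD numbers was 0.80 and Pearson's r was 0.76, a description over bins that share the same chromatin pool. The bin richest in XPD summits was chr3:126600001-126700000, with 17 XPB and 16 XPD summits. The bin richest in XPB summits was chr3:127400001-127500000, with 21 XPB and 11 XPD summits. The lists parted at chr3:124400001-124500000, a bin picked after its values were seen, which had 16 XPB summits and 2 XPD summits.

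**Figure D1:**
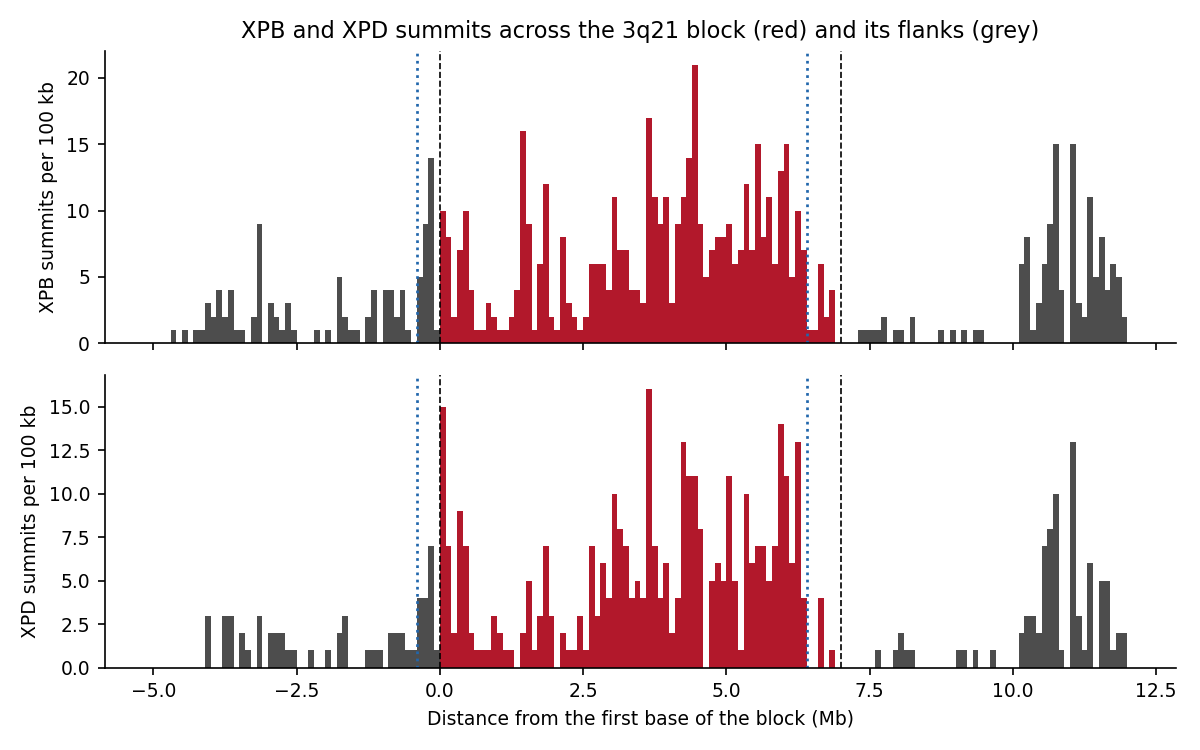
Summits per 100 kb of the XPB list (upper panel) and XPD list (lower panel), by distance in Mb from the first base of the block, with bins of the block in red and flanking bins in grey. Dashed lines mark the ends of the block as chosen, and dotted lines the positions where the numbers changed most, which lie 0.4 Mb outside the left end and 0.6 Mb inside the right end.

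The step in density at the edges of the block was larger on the right than on the left across the 3 Mb to either side of each chosen end, but within 500 kb of the edge the right step was not the larger one beyond counting error in either list. For each list, the boundary between 100 kb bins that best divided the surrounding 6 Mb into a dense and a sparse side was found. On the right both lists placed it at 129400 kb, which is inside the chosen end of 130000 kb. Density there was 94.2 XPB and 71.7 XPD peaks per Mb on the inner side and 8.06 XPB and 4.17 XPD peaks per Mb on the outer side, steps of 11.7 and 17.2 times. In the 500 kb on the inner side there were 50 XPB and 48 XPD summits, and in the 500 kb on the outer side 14 XPB and 5 XPD summits.

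On the left both lists placed the boundary at 122600 kb, outside the chosen start at 123000 kb. Density was 50 XPB and 34.4 XPD peaks per Mb on the inner side and 16.2 XPB and 10 XPD peaks per Mb on the outer side, steps of 3.10 and 3.44 times. In the 500 kb on the inner side of this boundary there were 39 XPB and 31 XPD summits, and in the 500 kb on the outer side 11 XPB and 8 XPD summits. For XPB the ratio within 500 kb was 3.55 on the left (1.78 to 7.68) and 3.57 on the right (1.94 to 6.996), and within 250 kb it was 5.75 on the left (1.96 to 22.9) and 3.4 on the right (1.20 to 11.8). For XPD the ratio within 500 kb was 3.88 on the left (1.74 to 9.76) and 9.6 on the right (3.84 to 30.9), intervals that overlap. At the chosen start itself the change was slight for XPB, with 37 summits in the first 500 kb of the block and 29 in the 500 kb before it. For XPD the same stretches had 40 and 17 summits. The window of 1 Mb before the block held 44 XPB and 24 XPD peaks, which is inside the range of XPB numbers and 1 below the lowest XPD number of the block's own windows.

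Beyond the right edge lay a sparse stretch and then another dense one. The 3 windows of 1 Mb from 130000 to 133000 kb held 7, 5 and 3 XPB peaks and 2, 4 and 4 XPD peaks. The following windows, from 133000 to 135000 kb, held 52 and 61 XPB peaks and 36 and 38 XPD peaks, and are the densest in XPB peaks of the rest of chromosome 3.

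The nearest peaks, inside and outside, lay closer to the left end than to the right end. The first XPB summit inside the left end was 2.33 kb from it, with 12 fragments and a score of 295.8, and the last one outside was 79.6 kb away, with 15 fragments and a score of 423.2. The first XPD summit inside was 3.86 kb from the left end (14 fragments, score 179.7) and the last outside 93.4 kb away (12 fragments, 210.9). At the right end the last XPB summit inside was 127.8 kb from the end (11 fragments, score 203.5) and the next outside was 389.5 kb beyond it (12 fragments, 307.9). The last XPD summit inside was 175.0 kb from the end (10 fragments, score 158.2), and the next outside was 612.8 kb beyond it (25 fragments, 179.9). No peak interval crossed either end.

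Neighbouring summits in the block were a few kb apart. The median distance between neighbouring XPB summits was 7.45 kb in the block (interquartile range 3.06 to 16.4) and 31.1 kb in the rest of chromosome 3 (7.61 to 94.0). Between neighbouring XPD summits it was 9.18 kb in the block (4.07 to 21.8) and 54.6 kb in the rest (14.7 to 157.7). Distances of 5 kb or less made up 37.5% of XPB distances in the block (33.1 to 42.1) and 18.2% in the rest (16.3 to 20.4). For XPD these shares were 33.0% in the block (28.1 to 38.3) and 11.9% in the rest (9.83 to 14.1). With only the peaks that scored 200 or more, the median distance was 14.7 kb in the block and 60.6 kb in the rest for XPB, and 15.01 and 107.5 kb for XPD.

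Distances in the block varied less, relative to their mean, than in the rest of chromosome 3. The rest pools dense windows with 27 windows of 1 Mb without a peak, so this does not show more even local spacing. In the block's bins of 100 kb, the variance of summit numbers was 3.15 times the mean for XPB and 3.29 times for XPD. The SD of the distances was 1.49 times their mean for XPB and 1.55 times for XPD in the block, against 2.83 and 2.70 times in the rest of chromosome 3. The longest distance in the rest was 5583 kb for XPB and 8543 kb for XPD. In the block the longest stretch without an XPB summit ran 167.4 kb, from 123812136 to 123979546, and contained 3 XPD summits. The longest stretch without an XPD summit ran 251.6 kb, from 129385832 to 129637411, across the right boundary, and contained 3 XPB summits. The closest XPB summits lay 440 bp apart, at 126945482 and 126945922, and the closest XPD summits 451 bp apart, at 124912518 and 124912969. Library fragments were selected at 400 to 700 bp, which is about the size of these smallest distances.

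**Figure D2:**
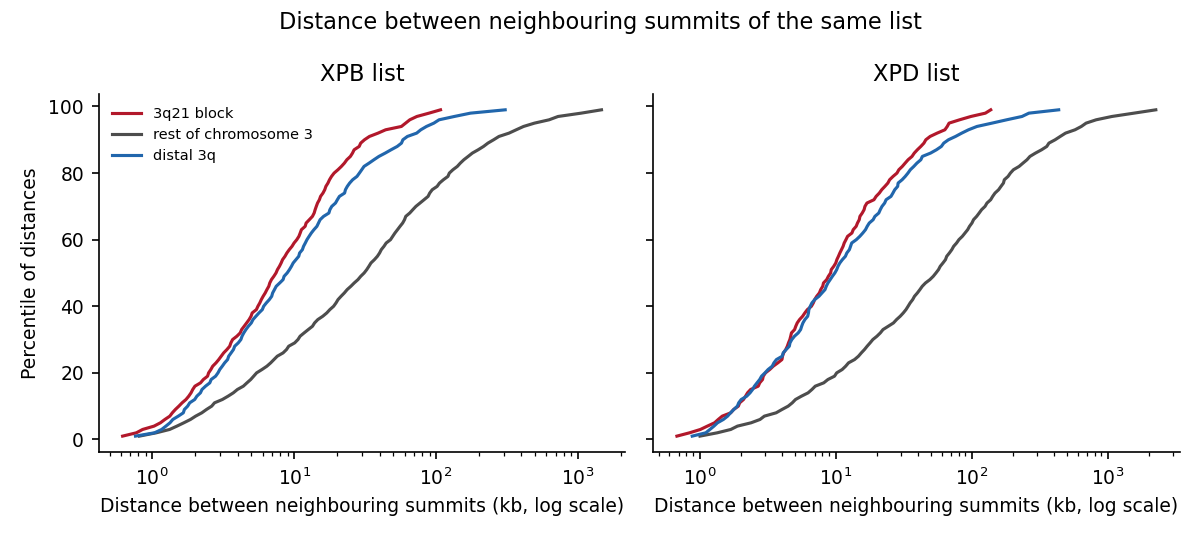
Distances between neighbouring summits of the same list, in kb on a log scale, against their percentile, for the XPB list (left) and the XPD list (right). The curves of the block lie left of those of the rest of chromosome 3, with medians of 7.45 against 31.1 kb for XPB and 9.18 against 54.6 kb for XPD, and close to those of distal 3q.

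Most peaks of the block belonged to runs, which largely restates the short spacing given above. When summits of the same list no more than 10 kb apart were chained, 19.4% of XPB peaks and 26.4% of XPD peaks in the block stood alone, against 54.9% and 68.5% in the rest of chromosome 3. Runs of 5 or more summits held 38.5% of the block's XPB peaks and 29.2% of its XPD peaks, against 10.2% and 7.34% in the rest. The longest XPB run had 13 summits over 44.4 kb, from 128547413 to 128591839. The longest XPD run had 11 summits over 43.8 kb, from 128947293 to 128991108. The rest of the chromosome had runs as long, up to 14 XPB and 11 XPD summits, with first summits at 138129602 and 138108682.

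Peaks of the block were dense but not tall. Median XPB height was 12 fragments in the block (interquartile range 10 to 14) and 12 in the rest of chromosome 3 (10 to 15). Median XPD height was 13 fragments in the block (11 to 16) and 14 in the rest (12 to 17). Summits of 20 fragments or more made up 5.38% of XPB peaks in the block (3.51 to 7.83) and 9.89% in the rest (8.38 to 11.6), with 6.64% in the whole XPB list. For XPD the shares were 6.88% in the block (4.46 to 10.1) and 13.7% in the rest (11.5 to 16.1), with 8.74% in the whole list. The share of tall summits was thus lower than in the rest of chromosome 3. It was not set apart from the whole lists, whose shares lie inside the block's intervals. The tallest XPB summit of the block had 32 fragments, and 20 of the 1416 XPB summits in the rest were taller. The tallest XPD summit of the block had 30 fragments, and 25 of the 913 XPD summits in the rest were taller.

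**Figure D3:**
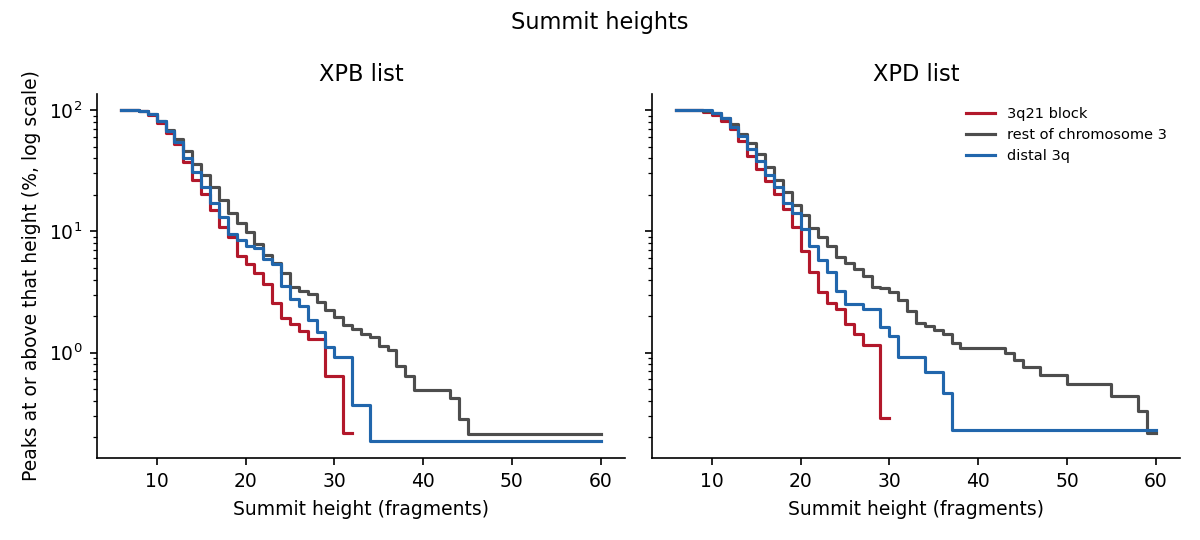
Share of peaks, in percent on a log scale, with a summit at or above each height in fragments, for the XPB list (left) and the XPD list (right), shown up to 60 fragments. The curves of the block end at 32 fragments for XPB and 30 for XPD, while those of the rest of chromosome 3 go on beyond the range plotted.

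The excess of peaks was smaller among tall summits, though not step by step. Among XPB peaks of 9 to 10 fragments the block was 9.36 times as dense as the rest of chromosome 3 (7.56 to 11.5), among those of 15 to 16 fragments 7.35 times (5.15 to 10.3), and among those of 20 to 29 fragments 4.94 times (2.98 to 7.85). Among XPD peaks the same bands gave 11.9 (8.49 to 16.6), 7.09 (4.96 to 9.97) and 6.02 times (3.65 to 9.57), with 10.01 times (6.98 to 14.2) at 17 to 19 fragments. At 30 fragments or more the block had 3 XPB peaks and 1 XPD peak, against 28 and 29 in the rest, which is 2.69 times the density of the rest for XPB (0.524 to 8.72) and 0.867 times for XPD (0.0212 to 5.23).

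Scores behaved differently from heights. The median XPB score was 201.6 in the block (interquartile range 170.04 to 255.7) and 190.7 in the rest of chromosome 3 (166.4 to 243.0). The median XPD score was 189.2 in the block (168.4 to 246.9) and 183.9 in the rest (162.8 to 225.5). Scores of 300 or more made up 15.9% of XPB peaks in the block (12.7 to 19.6) and 13.8% in the rest (12.0 to 15.7), with 14.3% in the whole XPB list. For XPD they made up 13.2% in the block (9.81 to 17.2) and 12.0% in the rest (10.01 to 14.3), with 11.9% in the whole list. The block thus had about the usual share of high scores, and the intervals of block and rest overlap in both lists.

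By score, the excess of peaks was largest in the middle of the range. For XPB peaks scoring 150 to under 170 the block was 6.91 times as dense as the rest of chromosome 3 (5.58 to 8.51), and for those scoring 300 to under 400 it was 11.4 times as dense (7.92 to 16.2). For XPD the corresponding values were 7.21 (5.67 to 9.09) and 15.3 times (9.85 to 23.3). These intervals do not overlap for XPD and overlap narrowly for XPB. Above this the numbers were small. At scores of 600 or more the block had 7 XPB peaks and 1 XPD peak, and the rest had 23 and 14.

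Peaks in the block were wider. Median XPB width was 970 bp in the block (interval of the median 924 to 1022) and 857.5 bp in the rest of chromosome 3 (836 to 878), a ratio of 1.13. Median XPD width was 1129 bp in the block (1071 to 1205) and 992 bp in the rest (960 to 1017), a ratio of 1.14. The widths of single peaks spread far more than this, with interquartile ranges of 777 to 1318 bp in the block and 654 to 1114 bp in the rest for XPB. Peaks of 2000 bp or more made up 2.58% of XPB peaks in the block (1.34 to 4.46) and 1.91% in the rest (1.26 to 2.76). For XPD they made up 8.60% in the block (5.87 to 12.0) and 3.29% in the rest (2.23 to 4.66).

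The difference in width was small for the lowest XPB summits and larger for taller ones, though not step by step. Among XPB peaks of 9 to 10 fragments the median width was 922 bp in the block and 920 bp in the rest of chromosome 3, with median scores of 185.8 and 180.0. Among those of 13 to 14 fragments it was 983 bp in the block and 809.5 bp in the rest, with median scores of 223.9 and 191.2. Among those of 15 to 16 fragments it was 1050 bp in the block and 687.5 bp in the rest, with median scores of 220.8 and 200.2. Among those of 17 to 19 fragments it was 903 bp in the block and 759 bp in the rest. XPD peaks of 20 to 29 fragments, 23 in the block and 96 in the rest, had median widths of 1592 and 893 bp and median scores of 289.0 and 220.9. Low XPD summits varied, with median widths of 1371 and 1033.5 bp at 6 to 8 fragments (10 and 16 peaks) and 1079 and 1069 bp at 9 to 10 fragments. Scores were nearly the same for XPB peaks of 6 to 8 fragments, with medians of 172.9 in the block and 171.9 in the rest, and for XPD peaks of 13 to 14 fragments, with 184.8 and 185.5.

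**Figure D4:**
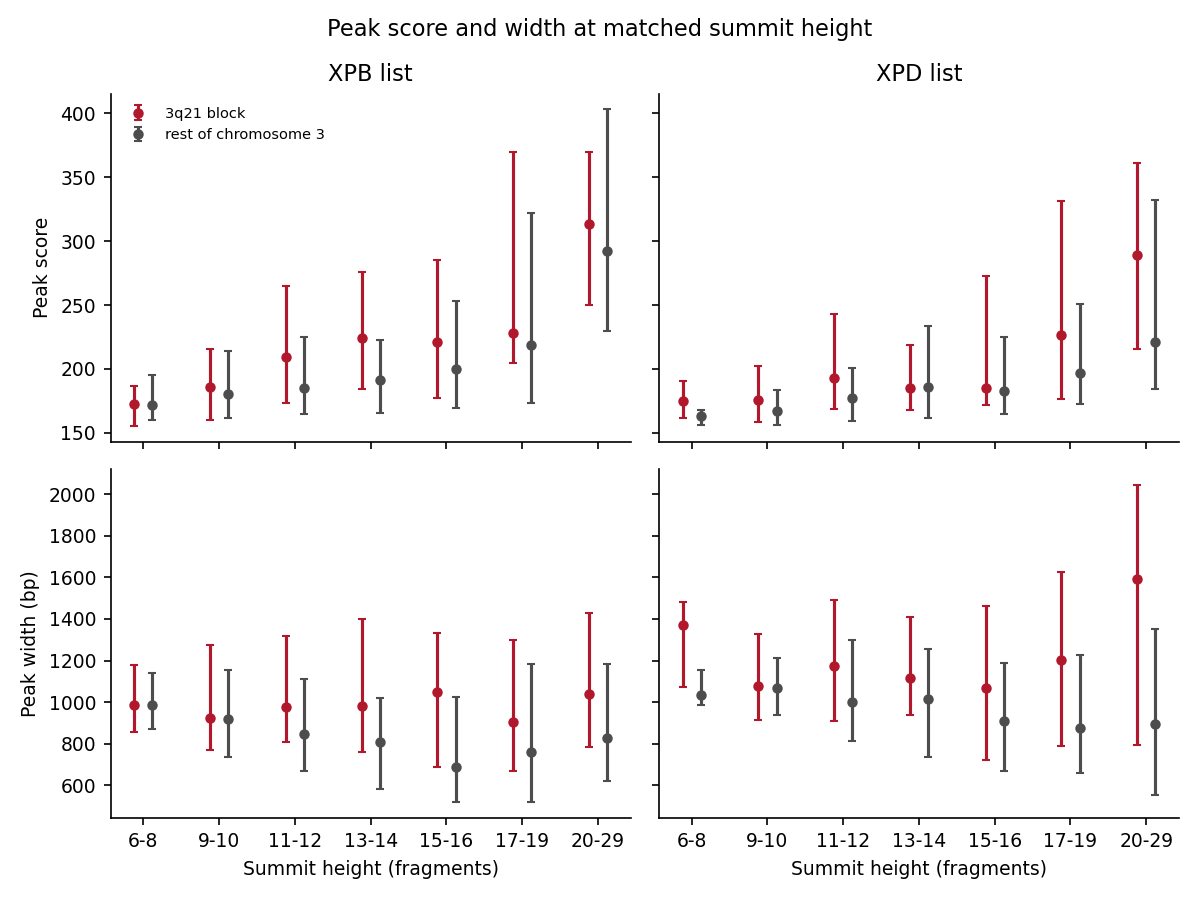
Median peak score (upper panels) and median peak width in bp (lower panels) by summit height in fragments, for the XPB list (left) and the XPD list (right), with bars from the lower to the upper quartile. XPB peaks of the block with 13 to 14 fragments had a median score of 223.9 against 191.2 in the rest of chromosome 3 and a median width of 983 against 809.5 bp, and the quartile ranges overlap in every band shown, from 6 to 29 fragments.

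Peaks just past the reporting threshold were compared in height. At scores of 150 to under 170 the mean XPB height was 10.7 fragments in the block (116 peaks) and 11.8 in the rest of chromosome 3 (422 peaks), a ratio of 0.906. The mean XPD height there was 12.5 fragments in the block (94 peaks) and 13.1 in the rest (328 peaks), a ratio of 0.957. Median widths in this band were 844 bp in the block and 716.5 bp in the rest for XPB, and 968.5 and 891 bp for XPD. Height was therefore compared between peaks of unlike width. The local read background and the number of copies of this stretch in HT1080 cells were not measured here, and the role of either was not tested.

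XPB and XPD peaks of the block overlapped each other more often than those of the rest of chromosome 3 when all listed peaks were counted. These shares are not adjusted for the higher peak density of the block, which by itself makes overlap more likely. Of the 465 XPB peaks, 179 overlapped an XPD peak by at least 1 bp, which is 38.5% (34.0 to 43.1), against 27.6% in the rest (25.3 to 30.02) and 26.6% in the whole XPB list. Of the 349 XPD peaks, 177 overlapped an XPB peak, which is 50.7% (45.3 to 56.1), against 42.4% in the rest (39.2 to 45.7) and 38.7% in the whole XPD list. The intervals of the block and of the rest do not overlap for XPB and barely touch for XPD. When shared meant summits within 250 bp, the shares came closer, 20.2% in the block (16.7 to 24.2) and 16.2% in the rest (14.4 to 18.3) for XPB, and 26.9% (22.3 to 31.9) and 25.2% (22.4 to 28.1) for XPD. With both lists limited to scores of 200 or more, the XPB share was 25.4% in the block (20.03 to 31.4) and 28% in the rest (24.5 to 31.7), and the XPD share was 37.7% in the block (29.99 to 45.8) and 50% in the rest (44.5 to 55.5). The order of block and rest was then the other way, with intervals that overlap in both lists. The higher overlap of the block was thus not seen without the peaks that scored under 200 in either list. With summits within 250 bp the block stayed higher in both lists, but the intervals of block and rest overlap.

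The share of bases under peaks differed as well. XPB peaks covered 7.10% of the bases of the block and XPD peaks 6.13%, against 0.740% and 0.544% of the rest of chromosome 3. Of the bases under XPB peaks, 34.0% were also under an XPD peak in the block and 26.9% in the rest. Set against the share of all bases under XPD peaks, this was 5.54 times in the block and 49.4 times in the rest. In distal 3q it was 9.34 times. The lower multiple in the block came from its larger divisor, 6.13% against 0.544% of bases under XPD peaks, as the overlap itself was higher there. The rest also pools 27 windows of 1 Mb without a peak, which lowers its divisor. These multiples therefore cannot show whether overlap relative to local coverage differed between the block and the rest.

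The difference in overlap was clearest among low-scoring peaks. XPB peaks scoring 150 to under 170 overlapped an XPD peak in 30.2% of cases in the block (22.0 to 39.4) and in 11.6% in the rest of chromosome 3 (8.71 to 15.1). For those scoring 170 to under 200 the shares were 32.1% in the block (23.5 to 41.7) and 18.4% in the rest (14.6 to 22.8). At 200 to under 250 they were 34.2% (25.6 to 43.7) and 25.8% (20.9 to 31.2). At 250 to under 300 they were 48.1% (34.0 to 62.4) and 37.8% (29.6 to 46.5). The intervals of block and rest overlap in both of these bands. At scores of 300 to under 400 the order was the other way, with 47.9% in the block (33.3 to 62.8) and 66.0% in the rest (56.2 to 74.96), intervals that overlap. In the XPD list the lowest band had 43.6% in the block (33.4 to 54.2) and 27.4% in the rest (22.7 to 32.6). XPD peaks scoring 250 to under 300 had 47.5% in the block (31.5 to 63.9) and 68.3% in the rest (55.3 to 79.4). All 7 XPB peaks and the 1 XPD peak of the block that scored 600 or more had a partner.

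**Figure D5:**
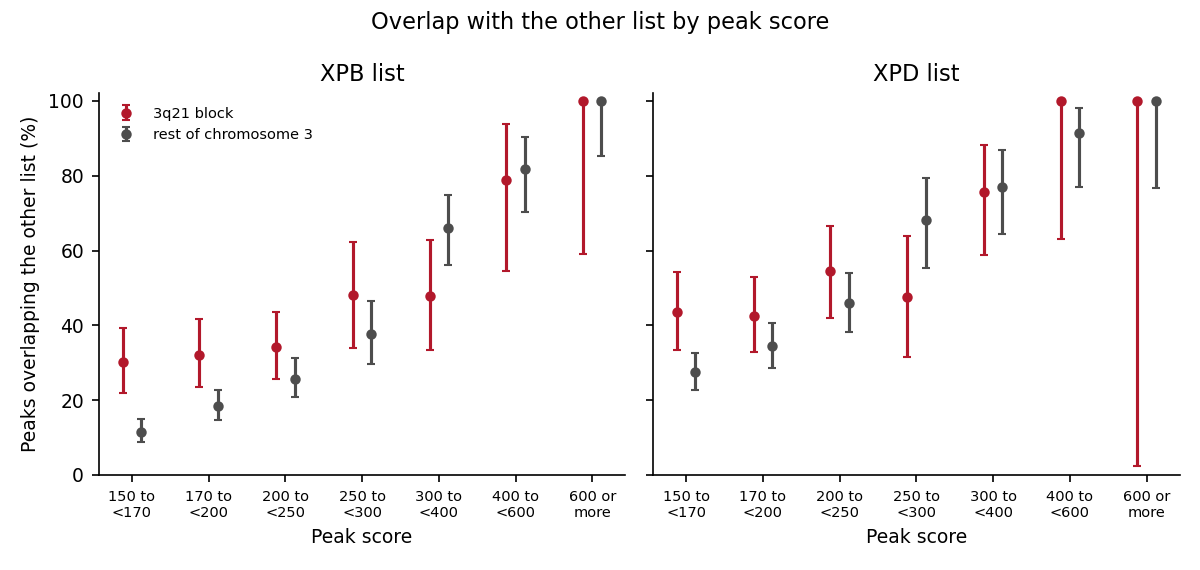
Share of peaks that overlapped a peak of the other list, in percent, by peak score, for the XPB list (left) and the XPD list (right), with exact binomial 95% intervals. For XPB peaks scoring 150 to under 170 the block had 30.2% and the rest of chromosome 3 had 11.6%, and at 300 to under 400 the block had 47.9% and the rest 66.0%.

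Shared and single-list peaks of the block were alike in height. Median XPB height was 12 fragments for shared and 12 for single-list peaks of the block, and 13 and 12 in the rest of chromosome 3. Median XPD height was 13 for shared and 13 for single-list peaks of the block, and 15 and 13 in the rest. In score they differed, with medians of 224.2 for shared and 192.4 for single-list XPB peaks in the block, and 203.0 and 182.7 for XPD. The 286 single-list XPB peaks of the block had the nearest XPD summit a median of 6.12 kb away, against 24.8 kb in the rest, and the 172 single-list XPD peaks had the nearest XPB summit 4.55 kb away, against 18.2 kb in the rest.

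The distance between the summits of overlapping peaks did not clearly set the block apart. In 169 pairs of mutually largest overlap, the median distance between the XPB and XPD summits was 202 bp in the block (interval of the median 108 to 282), against 133.5 bp in 382 pairs of the rest of chromosome 3 (93 to 210). Summits within 100 bp made up 39.6% of pairs in the block (32.2 to 47.4) and 46.1% in the rest (41.0 to 51.2). These intervals overlap. The log2 ratio of XPB to XPD height had a median of -0.14 in the block (-0.24 to -0.11) and -0.14 in the rest (-0.21 to -0.07), without adjustment for depth. Spearman's rho between XPB and XPD heights was 0.34 over the pairs of the block and 0.61 over those of the rest, a description over pairs from the same libraries. The heights of the block span a narrower range, which limits the comparison of these coefficients.

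The tallest summit of the block was a site of both proteins at chr3:127452535-127454052, with 32 XPB fragments and 28 XPD fragments at summits 17 bp apart and scores of 539.7 and 346.4. Next among the XPB summits were chr3:128967569-128969376, with 30 XPB and 19 XPD fragments at summits 89 bp apart, and chr3:127993535-127994431, with 30 XPB and 19 XPD fragments at summits 10 bp apart. These last sites were also, among pairs with 15 or more fragments in both lists, those furthest above the block's median log2 height ratio of -0.14. Their log2 ratio of XPB to XPD height was 0.66 each, with a counting interval of -0.22 to 1.57 that includes this median. Furthest below the median was chr3:126629859-126631760, with 19 XPB and 28 XPD fragments, a log2 ratio of -0.56 (-1.48 to 0.33). It was followed by chr3:126647352-126648843, with 15 and 20 fragments and a log2 ratio of -0.42 (-1.48 to 0.62). The counting intervals include the block median at all 4 sites, which were picked as extremes. Since depth is unknown, a log2 ratio of 0 does not mark equal binding of XPB and XPD.

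Several tall summits had no partner. The XPB peaks at chr3:126577186-126578337 and chr3:127517097-127518694 had 28 fragments each and scores of 592.9 and 396.8, and the nearest XPD summits were 8965 and 4193 bp away. The tallest XPD summit, at chr3:128443976-128445193, had 30 fragments and a score of 262.7, with the nearest XPB summit 8897 bp away. An XPD peak at chr3:126501221-126501749 had 28 fragments over only 529 bp and a score of 157.3, near the lowest listed, with the nearest XPB summit 15104 bp away. A shared site at chr3:128879283-128881248 completed the 5 tallest XPD summits, with 22 XPB and 26 XPD fragments at summits 28 bp apart.

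Some of the highest XPB scores in the block belonged to wide peaks of modest height. These had 10 and 13 fragments at their summits, while the others of the 5 highest had 16 to 22. The highest XPB score, 738.7, belonged to the widest XPB peak, chr3:128084563-128088239, which had 10 fragments at its summit over 3677 bp. The XPD peak beneath it had 9 fragments and a score of 164.2, and its summit was 657 bp away. The next XPB scores were 706.0 at chr3:126793153-126794451 (18 fragments), 670.4 at chr3:128879799-128881268 (22 fragments), 663.9 at chr3:126696292-126698577 (13 fragments) and 626.4 at chr3:127309299-127310827 (16 fragments). All 5 had an XPD partner, but in 4 of them the summits were 404 to 947 bp apart.

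In the XPD list the highest score was 721.8, at chr3:128966068-128968807, with 19 fragments over 2740 bp. It was followed by 597.8 at chr3:128879283-128881248 (26 fragments), 477.7 at chr3:128101548-128103547 (17 fragments), 476.6 at chr3:126629495-126631872 (28 fragments) and 428.1 at chr3:129065563-129067845 (15 fragments). Each had an XPB partner, with summits 28 to 639 bp apart. The widest XPD peak, chr3:126654741-126657821, spanned 3081 bp, with 9 XPB and 18 XPD fragments at summits 53 bp apart. After the peak at chr3:126577186-126578337, the highest scores without a partner in the XPB list were 433.7 at chr3:126992975-126993888 and 406.1 at chr3:127455199-127457622. In the XPD list they were 399.3 at chr3:123047851-123049771, 354.9 at chr3:126097046-126098971 and 351.7 at chr3:127477827-127479418.

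The dense stretch of distal 3q, from 183000 to 198000 kb, was the other dense stretch compared. Averaged over each stretch, the block was 1.85 times as dense in XPB peaks (1.63 to 2.10) and 1.72 times as dense in XPD peaks (1.49 to 1.99). Distal 3q was uneven, with 1 to 90 XPB and 1 to 94 XPD peaks per window of 1 Mb. The block's windows held 39 to 95 XPB and 25 to 73 XPD peaks. In each list, 8 of the 15 distal windows held at least as many peaks as the block's sparsest window. Median widths were 970 bp in the block and 948 bp in distal 3q for XPB, and 1129 and 1101 bp for XPD. Median scores were 201.6 in the block and 198.7 in distal 3q for XPB, and 189.2 and 194.6 for XPD. Median heights were 12 fragments in both for XPB and 13 in both for XPD. Overlap with the other list was 38.5% in the block and 34.1% in distal 3q (30.1 to 38.3) for XPB, and 50.7% and 42.2% (37.5 to 47.0) for XPD. The tallest summits of distal 3q, with 87 XPB and 100 XPD fragments, were well above the 32 and 30 of the block.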

How the data were processed

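Peak lists of an XPB and an XPD ChIP library from HT1080 cells were used. Fragments of 400 to 700 bp were selected and ChIP libraries amplified for 12 cycles, per the labels' protocols, whose shared text names an antibody against CSB. Groups follow the samples' own antibody fields. Per the submitters' processing notes, Bowtie 0.12.7 aligned the reads to hg19 and MACS 1.4 called the peaks. Whether the input was the control, and other settings, are not given in the sources used here. Lists were deposited per library. The deposited score, by the usual MACS layout, is the log10 of the p-value multiplied by -10, listed from 150 to a ceiling of 3100. The summit files carry a deposited signal, taken as the number of fragments piled up there, with no scaling to depth.

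Computed here, with Python 3.11.15, numpy 2.4.6, pandas 2.3.3, scipy 1.17.1 and matplotlib 3.10.9, were numbers by summit position (1-based), spacing, overlap (at least 1 bp), pairs of mutually largest overlap, and the best split of 100 kb bins into 2 Poisson rates within 3 Mb of each edge. The rest of chromosome 3 spans 176 Mb and includes 27 windows of 1 Mb without a peak. Intervals are exact binomial, exact Poisson, conditional binomial for ratios of numbers, and order-statistic intervals for medians. PCR copies are not independent molecules. Functions were tested on simulated lists. The named peaks are the 5 tallest (ties by score), the 5 highest scores, the 3 highest scores without a partner and the widest of each list, the 4 most uneven pairs, the peaks beside each edge, and the longest and closest spacings. The members and these rules were chosen with earlier results of these data known. No hg19 sequence or annotation was used.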

Additional observations from a re-analysis of the deposited data

How the results depend on the processing

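Of 75 alternatives, 51 stayed within the counting interval of the reported value (within 100 kb for the edges), 21 moved outside it and 3 turned the direction, all 3 with scores of at least 200. No test was run, so no call could be lost. With scores of at least 200, the density of the block over the rest of chromosome 3 was 9.65 times for XPB and 11.5 times for XPD, the overlap 25.4 and 37.7%, the median spacing 14.7 and 15.01 kb, and the ratio of median XPD heights 0.867. The ratio of median XPB scores, 1.057 with all peaks, was then 0.997 (0.963 to 1.043), an interval that includes 1. The higher median XPB score thus does not hold among the stronger peaks. Neither does the higher overlap of either list (28% for XPB and 50% for XPD in the rest of the chromosome). The overlap intervals of block and rest overlap there in both lists, so the turned order is not clear. Without windows that hold no peak, the density ratios were 6.99 and 8.14. Against all other autosomes the XPB density ratio was 9.33, the ratio of median heights 1.09 for XPB and 1 for XPD, and the ratio of median XPD widths 1.22. The overlap was 27.5% for XPB and 36.7% for XPD where each peak had to cover 50% of the other, and 20.2 and 26.9% with summits within 250 bp. In bins of 250 kb the left edge was at 122000 kb for XPB and 122250 kb for XPD, and the right edge of XPB at 129750 kb. With scores of at least 200 the left edge of XPD was at 122100 kb and the right edge of XPB at 129700 kb. The median log2 height ratio of pairs was -0.093 when both summits had 15 or more fragments. Moving the edges by 0.5 Mb, or to 122600 and 129400 kb (added after seeing the data), kept each value inside its interval. The causes of these shifts were not tested. No paired analysis was possible because there is 1 library per antibody and no test. A site missing from either list may still be bound, since depth is unknown and scores under 150 are not listed.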
